A study of Mus musculus with 11 samples.

Results

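Irx1, Irx2, Pou3f4, Hhex and Etv1 encode transcription factors of the alpha and delta cells, the glucagon and somatostatin cells of the islet. They were chosen by name, as 5 of the 19329 gene IDs with values in the deposited expression table, and all 5 had a value in every PDX1P33T library. The study sequenced RNA of whole pancreatic islets from male mice aged 14 weeks, as 6 wild-type libraries and 5 libraries from homozygous Pdx1 P33T/P33T mice. The mutation exchanges proline 33 for threonine in PDX1, the homeobox factor that maintains the beta cell, and was made by CRISPR-Cas9 in C57BL/6N embryos, so that all cells of the mutant mice carry it. Islets were kept in culture after isolation, and the mice of the cohorts came from intercrosses of homozygotes while the controls are called littermates, so how far the genotypes shared parents cannot be told. A figure legend of the study speaks of 6 individual mice for a replicate, so a library may be a pool and n is the number of libraries. P-values measure the spread between these libraries, which may be partly technical.

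Each islet cell type is kept by a combination of transcription factors, and alpha and delta cells form the smaller share of the mouse islet beside the beta cells. Irx1 and Irx2 belong to the Iroquois homeobox family and are enriched in alpha cells. Pou3f4, also called Brn4, is a POU class 3 homeobox factor of the alpha lineage that binds the glucagon promoter. Hhex is the homeobox factor needed for delta cells, and Etv1 is an ETS factor of the PEA3 family that is listed here with the delta cell factors. In whole-islet RNA, fewer cells of a type and less RNA per cell cannot be told apart.

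Values are FPKM, read counts adjusted for gene length and for the depth of the library, from libraries of 19311937 to 37094286 reads. The islet label was met by its markers, since Ins2, Gcg and Sst had means of 152890, 10618 and 5720 FPKM in PDX1P33T islets. The 5 acinar marker genes with a value summed to between 5.31 and 48.9 FPKM there, with the highest sum in replicate 2. The 6 ductal marker genes summed to between 134 and 151 FPKM. For most genes, the deposited wild-type values are not beside the ID of their own gene. A wild-type row was therefore used only after its gene had been identified, from the wild-type reads listed by the study or from gene length and level, which left 4726 genes for the comparison of genotypes. Pdx1 itself was at a mean of 79.0 ± 0.881 FPKM (SD) in the 5 PDX1P33T libraries, and its wild-type row was not identified. A point mutation need not alter the level of its gene, so this does not check the labels.

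The genes lie on different chromosomes except for Irx1 and Irx2, which are neighbours on chromosome 13 in the Iroquois cluster that also holds Irx4. The gene lengths recovered from the FPKM were 2620 bases for Irx1, 3282 for Irx2, 2928 for Pou3f4, 5056 for Hhex and 13296 for Etv1. All 5 equalled the joined exons in the GENCODE vM21 annotation of GRCm38. Pou3f4 is a gene of 1 exon on chromosome X, Hhex is on chromosome 19 and Etv1 on chromosome 12. The lincRNA gene Gm20554 lies on the opposite strand in that annotation, 256 bases away from the start of Irx2 and without overlap. It was at 0.661 ± 0.132 FPKM (SD, n = 5) in PDX1P33T islets.

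Promoter windows of 300 bases from RefSeq (GRCm38.p6), 250 bases before and 50 after a transcription start, matched 4 of the 5 genes, with 2 starts for Etv1. PDX1 and other homeobox factors recognise a core of TAAT, and the letters TAAT or ATTA stood in 58.0% of all 32851 windows. Pou3f4 held 1 match, the upstream Etv1 start 2 overlapping ones and the downstream Etv1 start 5. The windows of Irx2 and Hhex held 0. CTAATG, a longer form of that core, was found in 7.36% of all windows and, of these 5 windows, in the downstream Etv1 start alone. The Pou3f4 and Etv1 windows are printed because Pou3f4 is the factor whose genotype groups were apart and the Etv1 starts differ most in these letters; capitals mark TAAT on either strand, all windows are on the plus strand, and a match is only a match of letters.
Pou3f4, chrX:110814129-110814428: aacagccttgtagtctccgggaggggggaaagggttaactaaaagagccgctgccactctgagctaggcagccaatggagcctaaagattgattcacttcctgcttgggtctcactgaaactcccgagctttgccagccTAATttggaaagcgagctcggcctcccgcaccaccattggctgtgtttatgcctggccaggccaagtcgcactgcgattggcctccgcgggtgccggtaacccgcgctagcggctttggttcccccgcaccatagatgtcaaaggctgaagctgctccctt
Etv1 upstream start, chr12:38779832-38780131: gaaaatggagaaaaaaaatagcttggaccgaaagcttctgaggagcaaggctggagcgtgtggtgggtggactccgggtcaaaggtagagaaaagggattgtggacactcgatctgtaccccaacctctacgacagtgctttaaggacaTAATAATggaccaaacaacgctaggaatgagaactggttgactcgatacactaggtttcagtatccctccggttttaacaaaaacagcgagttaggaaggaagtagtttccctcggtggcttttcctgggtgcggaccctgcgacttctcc
Etv1 downstream start, chr12:38783461-38783760: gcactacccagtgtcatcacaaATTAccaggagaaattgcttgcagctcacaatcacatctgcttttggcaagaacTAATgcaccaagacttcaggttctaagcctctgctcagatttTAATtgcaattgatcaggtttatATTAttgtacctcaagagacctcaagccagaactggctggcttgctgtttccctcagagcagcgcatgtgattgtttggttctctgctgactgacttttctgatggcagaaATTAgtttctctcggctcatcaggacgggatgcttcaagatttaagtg
The windows also differed in base composition. Hhex had 75.7% GC and 37 CpG dinucleotides, and Irx2 had 69.0% and 25. Pou3f4 had 57.7% and 15 CpG, and the Etv1 starts had 48.7% and 12 and 44.0% and 3. The median of all windows was 52.7% GC and 7 CpG.

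Irx1, Irx2, Hhex and Etv1 stood within a narrow band of low to moderate expression in PDX1P33T islets, and Pou3f4 lay far below them. Etv1 had FPKM of 4.64, 3.19, 4.03, 4.34 and 3.96 in replicates 1 to 5. Hhex had 3.76, 2.78, 3.42, 3.83 and 3.53. For both delta cell factors, replicate 2 was the lowest library. The other 4 libraries ran from 3.96 to 4.64 for Etv1 and from 3.42 to 3.83 for Hhex.

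Irx1 had FPKM of 3.35, 2.62, 3.64, 3.35 and 3.36 in the same libraries. Irx2, which lies in the same gene cluster, had 2.71, 2.26, 2.97, 3.12 and 2.82. Again replicate 2 was the lowest for both genes, and Irx1 was above Irx2 in each library. Pou3f4 was at 0.216, 0.259, 0.201, 0.319 and 0.352 FPKM, from 17 to 38 reads per library. Its lowest library was replicate 3 and its highest replicate 5. The other genes rested on 163 to 1942 reads in each library.

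In order of level, the means were 4.03 ± 0.543 FPKM for Etv1, 3.46 ± 0.419 for Hhex, 3.27 ± 0.382 for Irx1, 2.77 ± 0.326 for Irx2 and 0.269 ± 0.0650 for Pou3f4 (SD, n = 5). Etv1 exceeded Hhex in 5 of 5 libraries, by 1.16-fold in the means, but their ranges overlapped; an exact two-sided sign-flip permutation test gave p = 0.063, the smallest that 5 libraries allow. Hhex exceeded Irx1 in 4 of 5 libraries with p = 0.25 by the same exact test, and these neighbours did not differ beyond their spread. Irx1 exceeded Irx2 in 5 of 5 libraries by 1.18-fold, with overlapping ranges and an exact p of 0.063. Irx2 and Pou3f4 were 10.3-fold apart, and their ranges did not meet. The p-values of these sign-flip tests cover the spread between libraries only. FPKM divide by the joined exons of all transcripts of a gene, and which transcripts were in use was not tested. Small gaps between genes therefore need not be gaps in the number of transcripts. Among the 18963 genes with a value, the percentile of the mean level was 65.7 for Etv1, 62.6 for Hhex, 61.5 for Irx1, 58.3 for Irx2 and 24.3 for Pou3f4.

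The listed islet transcription factors place these levels. Of 29 such factors, 22 had a value in PDX1P33T islets, and their means ran from 259 FPKM for Mafa, the maturity factor of beta cells, to 0.0492 for Etv4. Beta cell and pan-islet factors, 11 of the 13 with a value, took the upper 11 places. Etv5 and Etv1 followed, then Hhex and Irx1, and Myt1, a zinc finger factor of endocrine cells, stood between Irx1 and Irx2 at 3.26 ± 0.468 FPKM (SD, n = 5). Rfx3, a factor of cilia and islet maturation, was between Irx2 and Pou3f4 at 1.24 ± 0.208.

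**Figure D1:**
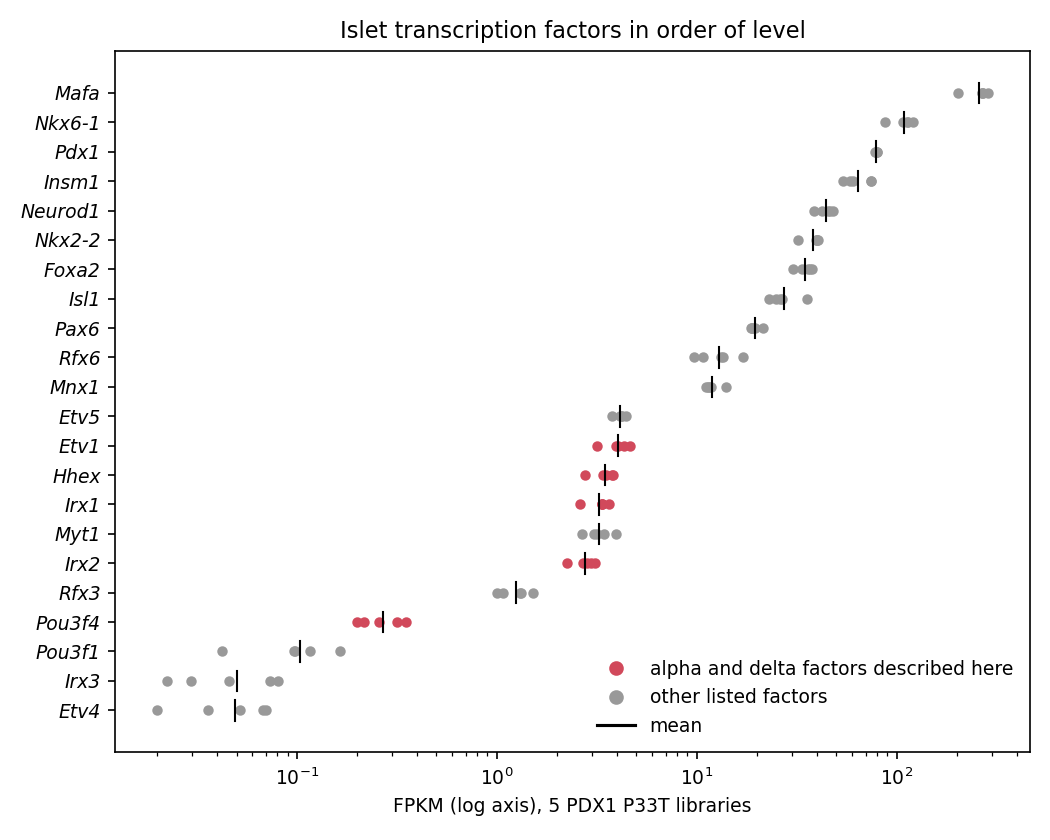
FPKM of 22 islet transcription factors in the 5 PDX1P33T libraries, 1 point per library on a log axis, with the mean as a black bar and genes in order of mean level. Etv1, Hhex, Irx1 and Irx2 (red) lie between 2.26 and 4.64 FPKM, and Pou3f4 lies between 0.201 and 0.352.

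Within their families, the genes differed in how alone they stood. Of the Iroquois genes, Irx3 was at 0.0504 ± 0.0260 FPKM in PDX1P33T islets, from 2 to 6 reads. Irx4, Irx5 and Irx6 are not among the IDs with values. The study kept only genes with a value in a set share of the replicates of a condition, so an absent gene may have had some reads. Among the Iroquois genes with values, Irx1 had 1248 reads over the 5 libraries and Irx2 had 1322, against 19 of Irx3. Of the POU class 3 genes, Pou3f4 stood above Pou3f1, which had 0.104 ± 0.0438 FPKM, and Pou3f2 and Pou3f3 have no values. Of the PEA3 genes, Etv5 had 4.16 ± 0.236 FPKM beside the 4.03 of Etv1, and Etv4 was at 0.0492 ± 0.0213 (SD, n = 5 for each).

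The spread between PDX1P33T libraries was ordinary for genes of this level. The coefficient of variation was 11.7% for Irx1, 11.8% for Irx2, 12.1% for Hhex and 13.5% for Etv1, where the 7684 genes of 1 to 10 FPKM had a median of 13.7% and quartiles of 9.25% and 20.5%. Pou3f4, with its few reads, had 24.1%. Replicate 2 set much of this spread. It was the lowest library for 10 of the 22 listed factors, Mafa, Nkx6-1 and Etv5 among them, and the highest for 6, Isl1, Pax6, Rfx6, Myt1, Pdx1 and Mnx1. Among all 11179 genes with a mean of at least 1 FPKM and a value in each library, replicate 2 was the lowest for 36.9% and the highest for 41.5%. Replicate 2 also had the highest sum of the acinar markers. Cela1, an acinar marker, was at 32.9 FPKM in it, against 4.67 to 7.42 in the other PDX1P33T libraries.

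Replicate 2 also stood apart in base composition. On the log2 scale, genes in the highest 20% of GC content (55.7% or more in the longest transcript) had a median deviation of -0.22 in replicate 2 from their own means, and genes in the lowest 20% (44.1% or less) had 0.30. The transcript GC content was 61.7% for Irx1, 56.8% for Irx2, 51.8% for Pou3f4, 51.7% for Hhex and 39.8% for Etv1. The 5 genes deviated by -0.24 on average in that library. Etv1 was low there although its GC content lies in the lowest 20%, whose genes were high in that library. Libraries were then centred within bins of GC content. The lowest library became replicate 1 for Irx1 and Irx2 and stayed replicate 2 for Hhex and Etv1. The coefficient of variation rose to 29.1% for Etv1. The centred means were 4.16 FPKM for Etv1, 3.46 for Hhex, 3.26 for Irx1, 2.76 for Irx2 and 0.270 for Pou3f4. The cause of the deviation of replicate 2 was not tested.

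**Figure D2:**
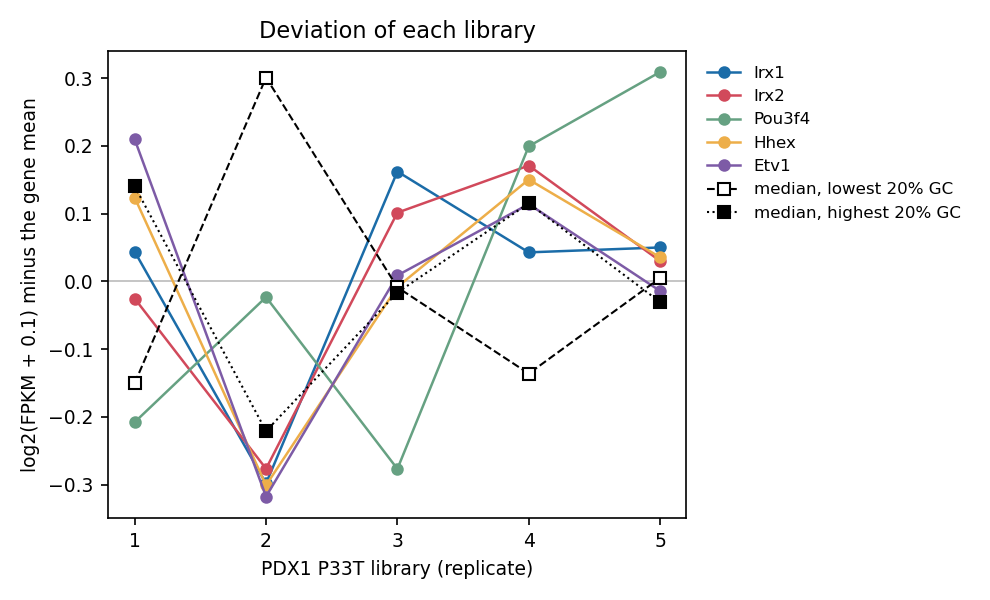
Deviation of each PDX1P33T library from the mean of the gene, on the log2(FPKM + 0.1) scale, for the 5 genes (lines with circles) and as medians over genes in the lowest and highest 20% of GC content (squares). In replicate 2, Irx1, Irx2, Hhex and Etv1 are low, the high-GC genes have a median of -0.22 and the low-GC genes one of 0.30. Of these factors, Irx1 and Irx2 are in the highest 20% of GC content, Hhex is in neither class and Etv1 is in the lowest 20%.

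The comparison of genotypes asks whether the alpha and delta cell factors differed in islets with mutant PDX1. It could be made for Pou3f4, whose wild-type row is known from the listed reads, for Etv1, the only gene of its length, and with a reservation for Irx2. With limma, fitted over the 4726 genes for Pou3f4 and Etv1 and again with the paired rows added for Irx2, and with calls made at 1.5-fold or more and an adjusted p no higher than 0.05, 0 of these 3 genes were called. For Irx2 the wild-type row was the one nearest in level, a choice that favours no call. Of the 4726 genes, 0.0423% were called higher and 0.0423% lower in PDX1P33T islets. At an unadjusted p under 0.05, 1 of the 3 genes, Pou3f4, was higher, where 15.7% of all genes were higher and 18.3% lower.

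Pou3f4 had wild-type FPKM with a lowest value of 0.108, a median of 0.135 and a highest of 0.191, from 7 to 14 reads per library. All 5 PDX1P33T libraries, at 0.201 to 0.352 FPKM, lay above all 6 wild-type libraries. The means were 0.269 ± 0.0650 (SD, n = 5) and 0.139 ± 0.0313 (SD, n = 6), a ratio of 1.93. On the log2(FPKM + 0.1) scale, which understates the change of low genes, the difference was 0.62 ± 0.15 (SE). It did not pass in limma with Benjamini-Hochberg adjustment (adjusted p = 0.48), and the exact two-sided permutation test of this gene alone gave p = 0.0043, which is 2 of the 462 splits. Non-overlap in this direction was seen in 2.31% of the genes in the fit and in 6.16% of the 1673 genes identified by reads, a set in which 38.6% were higher and 48.5% lower at an unadjusted p under 0.05, since the study ordered its list by its own test.

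Etv1 had wild-type FPKM from 2.58 to 4.23 with a median of 3.66. The PDX1P33T values of 3.19 to 4.64 overlapped this range in 3 of 5 libraries. The means were 4.03 ± 0.543 (n = 5) against 3.50 ± 0.582 (n = 6), and the log2 difference of 0.21 ± 0.13 (SE) did not pass (limma, adjusted p = 1.0, exact permutation p = 0.17). Its 95% interval ran from -0.053 to 0.47. Genes in the lowest 20% of GC content, like Etv1, had a median log2 difference of 0.20 between genotypes, and with libraries centred within GC bins the difference of Etv1 became -0.039 ± 0.20.

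Irx2 shares its length of 3282 bases with Fig4, a phosphoinositide phosphatase gene, and 2 wild-type rows have that length. Given the row nearest in level, Irx2 had wild-type FPKM from 1.42 to 3.30 with a median of 2.29, against 2.26 to 3.12 in PDX1P33T. Replicate 3 was the highest and replicate 2 the lowest wild-type library, and the groups overlapped. The means were 2.77 ± 0.326 (n = 5) and 2.29 ± 0.608 (n = 6), a log2 difference of 0.30 ± 0.17 (SE) that did not pass (limma, adjusted p = 0.85, exact permutation p = 0.14). Where such pairs of genes could be checked by reads, with levels 1.5- to 4-fold apart, this choice was right for 95 of 102 genes. With the rows crossed, Irx2 would differ by -1.08 (exact permutation p = 0.0022). Taking the row nearest in level favours a small difference, so the lack of a call for Irx2 is no test of a large change. Genes in the highest 20% of GC content, to which Irx2 belongs, had a median log2 difference of -0.28 between genotypes, and after centring within GC bins the difference of Irx2 was 0.52 ± 0.14.

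Hhex and Irx1 could not be compared in this way. A single wild-type row has the length of Hhex, and it can be that of Hhex or of AI661453, which was at 4.74 to 8.19 FPKM in PDX1P33T. The row held 2.63, 3.43, 6.03, 4.52, 4.29 and 4.13 FPKM in wild-type replicates 1 to 6, a range that includes all 5 Hhex values of PDX1P33T islets. If the row is that of Hhex, the ratio of PDX1P33T to wild-type was 0.830, and if it is that of AI661453, the ratio for that gene was 1.56. For Irx1, 6 genes and 3 wild-type rows have its length. One row belongs to Akain1 by its reads, another had a mean of 55.3 FPKM and the third held 3 reads in all, so the lengths gave no row at the level of Irx1 that was free.

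**Figure D3:**
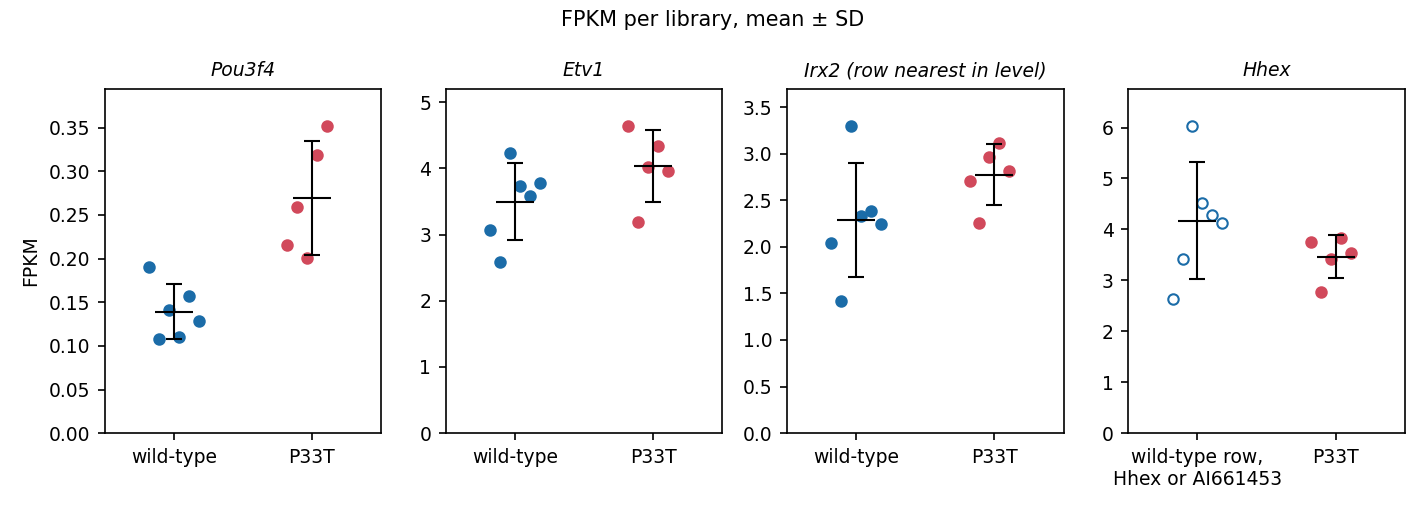
FPKM of Pou3f4, Etv1, Irx2 and Hhex in each wild-type (blue) and PDX1P33T (red) library, with mean ± SD in black and axes from 0. The groups are apart for Pou3f4, at 0.108 to 0.191 against 0.201 to 0.352 FPKM, and overlap for Etv1 and Irx2; the open circles of Hhex are the wild-type row that may be that of AI661453.

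The other listed factors were compared in the same fit. Of the 8 listed transcription factors in it, 0 were called, 6 had a positive and 2 a negative log2 difference, and the median was 0.25 beside -0.059 over all 4726 genes; at an unadjusted p under 0.05, 3 (Pou3f4, Rfx6 and Myt1) were higher and 1 (Irx3) lower, where 15.7% of all genes in the fit were higher and 18.3% lower. These 4 genes were all identified by reads, a set in which 38.6% were higher and 48.5% lower. Pou3f4 was the alpha cell factor among them and Etv1 the delta cell factor.

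Irx3 was the only Iroquois gene in that fit, from which Irx2 was kept apart, and its 5 PDX1P33T libraries, at 0.0225 to 0.0808 FPKM, lay below all wild-type libraries, at 0.0954 to 0.206 FPKM. These values rested on 2 to 6 and on 7 to 20 reads, and the log2 difference was -0.72 ± 0.17 (SE; limma, adjusted p = 0.46). Groups apart in this direction were found for 2.54% of all genes in the fit and 6.58% of those identified by reads. After centring within GC bins the difference was -0.38 ± 0.16. The 4 pan-islet factors in the fit, Pax6, Rfx3, Rfx6 and Myt1, had log2 differences of 0.079 to 0.39, and Mafa, the only beta cell factor in it, had -0.27; none was called. For Pou3f1, Etv4 and Etv5 the wild-type row was not identified.

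The hormones of the same cells did not pass the test either. Gcg had wild-type FPKM from 4702 to 11194 with a median of 9053, and PDX1P33T values from 9022 to 11983. Wild-type replicate 2 was the lowest library for Gcg, as it was for Irx2, for Etv1 and, narrowly, for Pou3f4 (0.108 FPKM, against 0.110 in wild-type replicate 4). The log2 difference of Gcg was 0.32 ± 0.22 (SE; limma, adjusted p = 1.0). Sst had 4309 to 10589 in wild-type with a median of 7383 and 5069 to 6693 in PDX1P33T, a difference of -0.32 ± 0.20 (adjusted p = 1.0 in limma). After centring within GC bins Sst was at -0.039 ± 0.16, and without wild-type replicate 2 Gcg was at 0.15. Leaving out 1 library at a time gave 0.15 to 0.40 for Gcg. For Sst it gave -0.46 (without wild-type replicate 1) to -0.20 (without wild-type replicate 3). Wild-type replicate 3 was the highest library for Sst, Irx2 and Etv1 and the row that may be that of Hhex; in that library the genes highest in GC content had a median deviation of 0.21 and those lowest in it -0.16. Its 4 endothelial markers in the fit summed to 161 FPKM, against 31.2 to 68.7 in the other wild-type libraries, and the part of these cells in the levels of the factors was not tested.

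**Figure D4:**
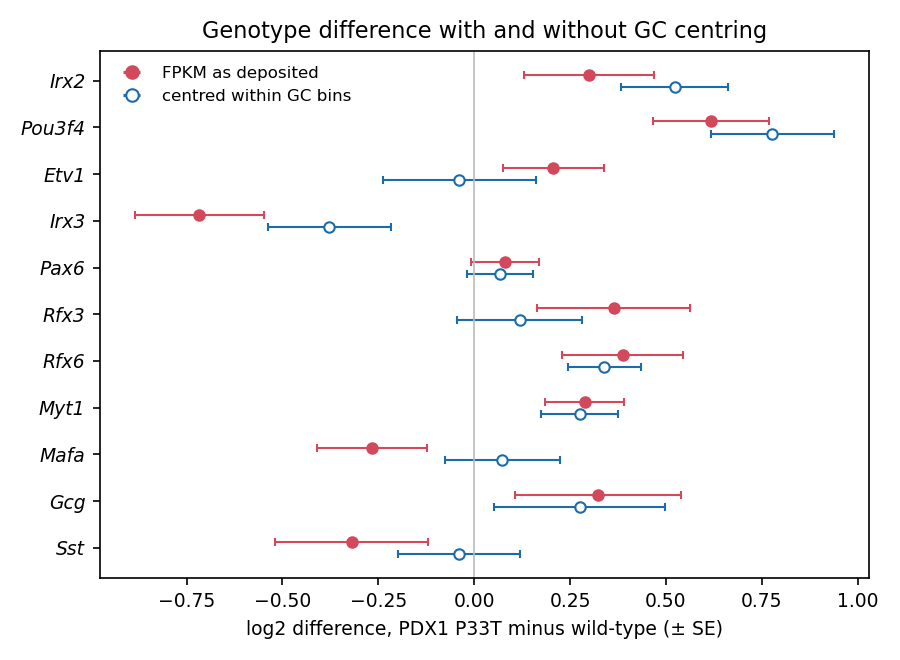
Log2 difference between PDX1P33T and wild-type islets (± SE) for Irx2, for the 8 listed transcription factors in the fit and for Gcg and Sst, from FPKM as deposited (red) and with libraries centred within bins of GC content (open blue). Pou3f4 stays at 0.62 and 0.78, while Irx3 moves from -0.72 to -0.38 and Etv1 and Mafa change sign, from 0.21 to -0.039 and from -0.27 to 0.073.

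The expression profile over the 5 PDX1P33T libraries gave the genes most like each factor, by the root mean square difference of log2 values centred on the gene's mean, among genes of at least 1 FPKM. Carmil3, Hdgfl2 and Gnaz were nearest to Etv1, at 0.0063 to 0.013. Tmbim6, Zfp358 and Grn were nearest to Hhex, at 0.0092 to 0.014. Such profiles were common, with 1627 genes within 0.1 of Etv1 and 1923 within 0.1 of Hhex, of 11189. Prkca, Nup210 and Ppp1r26 were nearest to Irx1, at 0.016 to 0.018, and Tead1, Th and Vps35l to Irx2, at 0.020 to 0.024. Pou3f4 had Ly6c1, Gm44126 and Pafah2 as its nearest genes, at 0.073 to 0.088, and 4 genes within 0.1. It rested on 17 to 38 reads per library and was compared with genes of higher level. The part of counting error in its small number of near genes was not tested.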

How the data were processed

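RNA of whole islets was measured in bulk in 11 libraries, 6 wild-type and 5 PDX1P33T. Per the methods, with versions and the build GRCm39 from the submitters' processing notes, the authors filtered reads with fastp 0.23.1, aligned them with HISAT2 2.0.5, counted them with featureCounts 1.5.0-p3 and deposited FPKM, so no count test was used. GRCm38 served only for annotation, sequences and GC content.

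The step of 1 read in the FPKM gave each library's reads and each gene's length (98.3% of 1673 lengths that could be checked against the study's list). Wild-type rows were identified for 1712 genes by the wild-type reads in the part of that list held here. Others were matched by length, where each genotype had 100 reads or more, the means lay within 4-fold and a rival of the same length differed by over 16-fold, which keeps out large changes; 403 of 403 matches that reads could check were right. Of 4765 genes identified, 39 listed at 0 in all PDX1P33T libraries were left out of the fit. Irx2 and Fig4 were paired by level after their values were seen and fitted apart.

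The log2(FPKM + 0.1) values entered limma 3.58.1 (R 4.3.3; trend and robust options, no covariates), with Benjamini-Hochberg adjustment over 19329 IDs, missing genes counting as unchanged. Scripts were tested on simulated data. Alternatives were other pseudocounts, a filter at 0.5 FPKM, median centring, centring in 20 GC bins, replicate blocks, plain empirical Bayes, another threshold and left-out libraries.

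The genes described and all lists (transcription factors of alpha, delta, pan-islet, beta, Iroquois, POU class 3 and PEA3 groups; markers of alpha, delta, PP, epsilon, beta, acinar, ductal, endothelial, stromal, Schwann and neural, and immune cells) were chosen with earlier results of these data known. Named were the 5 factors, their families, Gcg, Sst and Pdx1, and the 3 genes of at least 1 FPKM nearest in profile to each factor; others were named after their values were seen, and some listed genes are not reported here. Read counts cover counting error only. No library was a copy of another, since pairs within a genotype gave a median chi-square over genes of 1.35 to 23.2, where counting alone gives 0.455. Python 3.11.15 was used with scipy 1.17.1, pandas 2.3.3, numpy 2.4.6 and matplotlib 3.10.9.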

Additional observations from a re-analysis of the deposited data

How the results depend on the processing

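In the main fit 2 genes were called higher and 2 lower. With a log2 change of 1.5 or more required, 0 were called higher. With a pseudocount of 0.01 or a filter at 0.5 FPKM, 1 was. With rows identified by reads alone, 1 was called lower. Without 1 library, 1 to 3 were called higher and 2 to 5 lower; 5 were lower without wild-type replicate 1, and 1 was higher without wild-type replicate 2, 5 or 6 or PDX1P33T replicate 1, 3, 4 or 5. Without the 3 libraries furthest apart in GC content (wild-type replicates 1 and 3 and PDX1P33T replicate 2; chosen after seeing the data), 6 were higher and 21 lower, with 0 of the 8 listed factors among them.

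With a replicate block, numbered as in the titles, 0 genes were higher and 1 lower; numbered as in the library names, the replicate block gave 1 higher and 2 lower. Same-numbered libraries did not deviate together: the correlation of their deviations ran from -0.60 to 0.11 by titles and from -0.60 to 0.12 by library names, and 0 of 10 and 1 of 10 libraries correlated best with their own number. The blocks gave 0.61 and 0.62 for Pou3f4, 0.23 and 0.26 for Etv1, and 0.30 and 0.41 for Irx2.

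Pou3f4 stayed higher under all 20 alternatives, from 0.15 (pseudocount 1) to 0.90 (pseudocount 0.01), with limma adjusted p of 0.14 to 1.0. Without 1 library it was at 0.54 to 0.69. The groups of Pou3f4 do not overlap, so no other pseudocount and no left-out library could have turned the sign. Plain empirical Bayes and the use of rows identified by reads alone cannot alter its difference, which stayed at 0.62. Most of these alternatives are therefore no test of its direction. Etv1 ranged from 0.13 to 0.29 without 1 library and turned to -0.039 when libraries were centred within GC bins, added after seeing the data. Irx2 ranged from 0.18 to 0.41 without 1 library and was -1.08 with the row of Fig4. No alternative with an adjusted p took one of these factors past the threshold; the crossed row of Irx2 was given no adjusted p, and its exact permutation p was 0.0022. Under their 7 alternatives the mean levels in PDX1P33T ran from 3.88 to 4.24 FPKM for Etv1 and 3.37 to 3.64 for Hhex. They ran from 3.17 to 3.43 for Irx1, 2.69 to 2.90 for Irx2 and 0.249 to 0.286 for Pou3f4. Leaving out 1 library or taking the median cannot move a mean by 1 SD, so these ranges are no test of the levels. Few reads limit Pou3f4 and Irx3, whose values also move with the pseudocount (for Irx3 from -0.13 to -1.45), and the identification of rows limits Irx1, Irx2 and Hhex.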

Other observations

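The listed markers of the alpha and delta cells, with Gcg, Sst and Hhex among them, were present in all PDX1P33T libraries. The 5 alpha markers all had values, and the 3 in the fit, Gcg, Slc7a2 and Slc38a5, had positive log2 differences with a median of 0.24. Of all 4726 genes in the fit, 2228 were positive, and the median was -0.059. The 6 delta markers all had values. For Rbp4, Spock3 and Hhex the wild-type row was not identified. Ghsr, the ghrelin receptor of delta cells, had means of 1.41 ± 0.264 FPKM in PDX1P33T (SD, n = 5) and 0.962 ± 0.229 in wild-type (SD, n = 6). Its groups overlapped, and the log2 difference was 0.52 ± 0.17 (SE, limma adjusted p = 0.50). It was identified by reads, a set in which 38.6% were higher and 48.5% lower at an unadjusted p under 0.05 in limma. Ptprz1 and Sst had negative differences. None of the alpha and delta markers in the fit was called, where 0.0423% of all its genes were called higher and 0.0423% lower.

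Of the remaining cell types, 2 PP and 4 beta markers in the fit had median log2 differences of -0.45 and 0.15, and the 1 ductal marker, Krt7, had 0.14. The medians were negative for the other lists in the fit. They were -0.63 for 4 endothelial, -0.58 for 4 stromal, -1.01 for 2 Schwann and neural and -0.52 for 3 immune genes. In this fit 0 genes of any list were called, where 0.0423% of all its genes were called higher and 0.0423% lower. Ngfr, 1 of the 2 Schwann and neural genes, was at -1.45 ± 0.34 (SE, limma adjusted p = 0.46). The paper names Ngfr among the genes significantly lower in its own count test. The 4 endothelial markers summed to between 31.2 and 161 FPKM in wild-type and between 24.3 and 56.5 in PDX1P33T libraries, and without wild-type replicate 3 the wild-type range was 31.2 to 68.7 and the median log2 difference -0.36. Without wild-type replicate 2, whose 4 stromal markers summed to 27.1 FPKM against 1.46 to 5.72 in the other wild-type libraries, the stromal median was -0.079. The epsilon marker Ghrl and the 5 acinar markers with a value were not in the fit, and Ptf1a and Cd3e had no value.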
